A study of Mus musculus with 4 samples.

Results

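The genes described here are 10 members of the circadian clock and of its immediate output, measured in spatial transcriptomes of mouse liver. They are Arntl (BMAL1), Npas2, Clock, Nr1d1, Nr1d2, Ciart, Dbp, Tef, Per1 and Per2, chosen by symbol, and all 10 were found among the 31253 features. Their levels were taken per section and per lobule zone, to ask whether the disease groups, the lobule zones or single sections differ in clock state, and whether genes of opposite phase differ between sections as they would with the time of sampling.

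The clock of liver cells is a feedback loop of transcription. BMAL1 pairs with CLOCK or NPAS2 at E-box elements (CACGTG) and switches on Per, Cry, Nr1d, Ciart, Dbp and Tef. PER and CRY then block that pair, and the REV-ERB receptors encoded by Nr1d1 and Nr1d2 repress Arntl, Npas2 and Clock through RORE elements. In mouse liver RNA of Arntl, Npas2 and, less steeply, Clock is therefore high around the end of the night, and RNA of the other 7 genes is high at stages from the day to the early night. These sets are called night-end and day-phase genes below.

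Fresh-frozen liver was placed on 10x Visium slides, on which each spot captures the RNA of several neighbouring cells and counts it as UMIs, 1 for each captured molecule. The MASH group was mice with the model labelled MASH that were fed a diet labelled WD for 16 weeks, with MASH-1 and MASH-2 as its sections. The MAFL group was mice with the model labelled MAFL on the same diet for 8 weeks (sections MAFL-1 and MAFL-2). Model and weeks of diet change together, no group without the diet was used here, and strain, sex, age, feeding state and hour of sampling are not given in the sources used here. Whether sections of 1 group stem from different mice is not labelled. P-values therefore rest on how much sections vary, and that variation may be technical.

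The sections kept 2467 and 1862 spots with 63808230 and 44581221 UMIs in MASH-1 and MASH-2, and 2036 and 1881 spots with 32249289 and 38126800 UMIs in MAFL-1 and MAFL-2. Hepatocyte markers (Alb, Apoa1, Ttr, Serpina1c, Trf) were present in all 4 sections, with 87880 and 93416 UMIs per 1000000 (CPM) in MASH and 89797 and 89271 CPM in MAFL. All 7 macrophage and monocyte markers were higher in both MASH sections, with summed levels of 502 and 530 CPM in MASH against 156 and 187 CPM in MAFL, and all 6 stellate and fibroblast markers likewise, with 346 and 518 against 222 and 212 CPM. Red blood cell markers followed single sections, with 4147 and 1370 CPM in MASH against 2722 and 1611 CPM in MAFL. Between 1182 and 1725 barcodes were shared by any pair of sections, since barcodes mark slide positions. A section samples a mixture of cells, so fewer cells of a type and less RNA per cell cannot be told apart.

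Promoter sequence shows which of these genes carry the elements of the loop close to their start. RefSeq windows of GRCm38.p6, the assembly that mm10 names, run from 250 bases before a transcription start to 50 after it and were at hand for 9 of the 10 genes (not for Per2). Both strands were searched for the E-box CACGTG, the D-box TTATGTAA to which DBP and TEF bind, and the RORE core ANTNGGTCA, and no 2 matches overlapped. The E-box was present for 3 of the 9 genes, Ciart, Tef and Per1, and for 8.09% of 27025 genes with windows. The D-box was found for 0 of the 9 (1.11% of all genes) and the RORE for Arntl alone (2.56% of all genes). The stretches below belong to genes whose differences between sections are described next. They run from 180 to 31 bases before the start, with the E-box in capitals, and for Arntl only the RORE (capitals) and its flanks are shown.
Ciart, chr3:95882259-95882408, minus strand: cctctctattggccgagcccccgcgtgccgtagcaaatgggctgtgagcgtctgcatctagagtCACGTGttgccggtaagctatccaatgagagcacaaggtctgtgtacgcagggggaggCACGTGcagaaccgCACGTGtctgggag
Tef, chr15:81802493-81802642, plus strand: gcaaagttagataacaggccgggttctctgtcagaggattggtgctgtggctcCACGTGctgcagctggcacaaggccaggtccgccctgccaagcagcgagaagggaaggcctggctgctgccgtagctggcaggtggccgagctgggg
Per1, chr11:69098769-69098918, plus strand: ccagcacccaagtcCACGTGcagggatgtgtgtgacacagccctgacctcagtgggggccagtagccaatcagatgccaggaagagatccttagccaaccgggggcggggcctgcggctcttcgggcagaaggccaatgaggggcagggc
Arntl, chr7:113207531-113207555, plus strand: aggcagaaAGTAGGTCAgggacgga
The 3 E-boxes of Ciart start 116, 58 and 44 bases before its start. Tef has 1 E-box at 127 bases, and another at 138 bases before a second start. The E-box of Per1 lies at 166 bases, in a window inside the annotated span of the gene, and the RORE of Arntl begins 28 bases after the second of its 2 annotated starts. A match describes these letters and not binding.

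The night-end genes were scarce in these libraries. Arntl (chr7:113178471-113314126), the obligate partner in the activating pair, had 83 and 59 UMIs in MASH-1 and MASH-2 and 86 and 88 UMIs in MAFL-1 and MAFL-2. These counts correspond to 1.30 and 1.32 CPM in MASH, against 2.67 and 2.31 CPM in MAFL. Both MASH sections lay below both MAFL sections, and the exact 95% Poisson intervals, which cover counting error only, reached 1.61 and 1.71 CPM at most in MASH and began at 2.13 and 1.85 CPM in MAFL. Npas2 (chr1:39193702-39363240), which can replace CLOCK in the pair, had only 9 and 6 UMIs in MASH and 8 and 6 in MAFL, too few for the filter of the test. Its 0.14 and 0.13 CPM in MASH against 0.25 and 0.16 CPM in MAFL had intervals that overlapped throughout, so a difference was not detectable at this depth. Clock (chr5:76209868-76305603) stood at 8.40 and 10.9 CPM in MASH and at 11.8 and 8.58 CPM in MAFL, and its groups overlapped.

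The day-phase genes were better covered, and each differed beyond counting error between the sections of at least 1 group. Nr1d1 (chr11:98767932-98775377), for REV-ERB alpha, had 27.3 and 16.8 CPM in MASH-1 and MASH-2 and 22.3 and 32.2 CPM in MAFL-1 and MAFL-2. Nr1d2 (chr14:18204056-18239106), for REV-ERB beta, had 60.4 and 43.5 CPM in MASH and 54.4 and 51.25 CPM in MAFL. For both receptors MASH-2 was the lowest section, and the groups overlapped. Ciart (chr3:95878500-95882257), a repressor of the BMAL1 and CLOCK pair, had 9.09 and 4.71 CPM in MASH and 3.66 and 11.4 CPM in MAFL. It spread widest of the 9 genes tested, with MAFL-2 at 3.13 times MAFL-1.

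Dbp and Tef, a pair of transcription factors that carry the clock's rhythm to output genes through D-boxes, differed in their order. Dbp (chr7:45705100-45710203) had 149 and 83.8 CPM in MASH and 79.3 and 113 CPM in MAFL, highest in MASH-1 and lowest in MAFL-1. Tef (chr15:81802673-81826863) had 108 and 68.2 CPM in MASH against 110.0 and 129 CPM in MAFL, so that both MASH sections lay below both MAFL sections, MASH-1 by a small margin. Of the period genes, whose proteins close the feedback loop, Per1 (chr11:69095108-69109965) had 24.1 and 19.6 CPM in MASH and 12.96 and 22.7 CPM in MAFL. Per2 (chr1:91415977-91459351) had 11.6 and 11.3 CPM in MASH and 8.25 and 12.2 CPM in MAFL. For both period genes MAFL-1 was the lowest section and the other 3 lay close together.

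**Figure D1:**
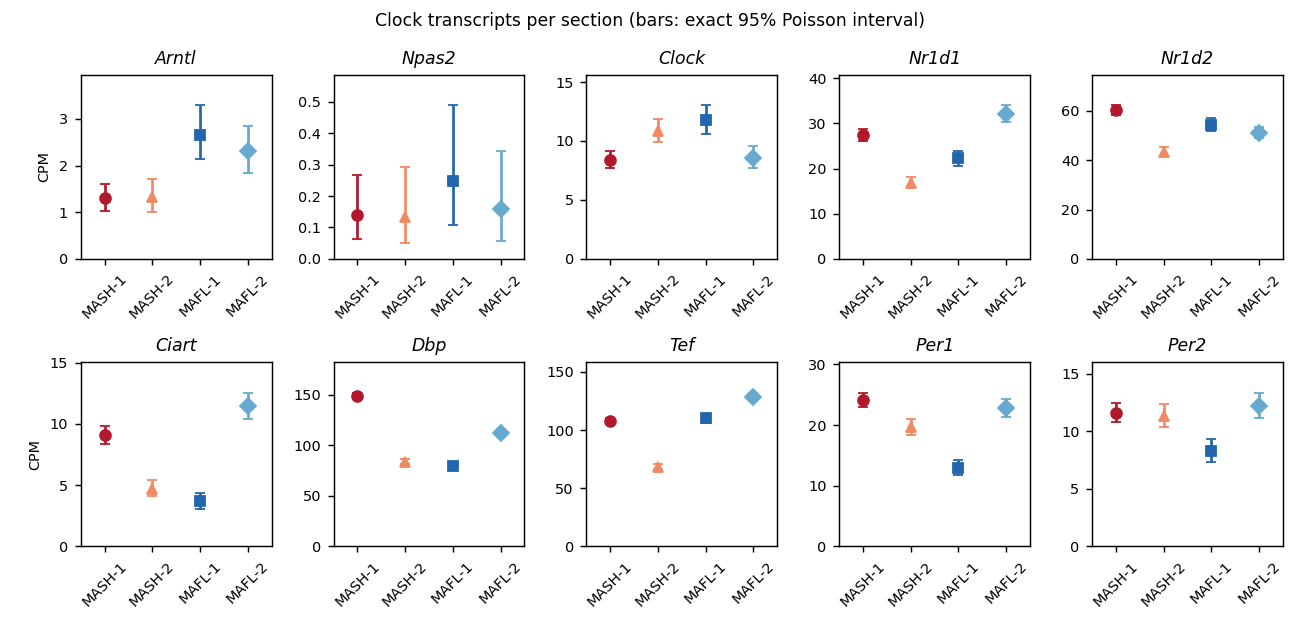
Level of each of the 10 clock genes in CPM (vertical axis, from 0) in sections MASH-1, MASH-2, MAFL-1 and MAFL-2 (horizontal axis); points are section totals and bars exact 95% Poisson intervals. Arntl is lower in both MASH sections (1.30 and 1.32 CPM) than in both MAFL sections (2.67 and 2.31 CPM), while most day-phase genes are higher in MASH-1 than MASH-2 and in MAFL-2 than MAFL-1.

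Within groups, the day-phase genes moved together between the 2 sections. All 7 were higher in MASH-1 than in MASH-2, and 6 of 7 were higher in MAFL-2 than in MAFL-1, with Nr1d2 as the exception. Both orders held for 6 of the 7, against 17.5% of 13593 tested genes, and since this order was read off the same values it is a description without a test. The ratio of MASH-1 to MASH-2 was 1.93 for Ciart (95% interval 1.65 to 2.27 from the counts), 1.78 for Dbp, 1.62 for Nr1d1, 1.58 for Tef, 1.39 for Nr1d2, 1.23 for Per1 and 1.02 for Per2. Only the Per2 interval (0.913 to 1.15) included 1. The ratio of MAFL-2 to MAFL-1 was 3.13 for Ciart (2.54 to 3.86), 1.75 for Per1, 1.48 for Per2, 1.44 for Nr1d1, 1.42 for Dbp, 1.17 for Tef and 0.942 for Nr1d2, and only the Nr1d2 interval (0.883 to 1.01) included 1. Ciart thus had the largest ratio in both groups.

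Clock ran opposite to the day-phase genes in both groups, at 0.772 times in MASH-1 relative to MASH-2 (0.682 to 0.875) and 0.728 times in MAFL-2 relative to MAFL-1 (0.626 to 0.846). Arntl did not separate the sections of a group beyond counting error, with 0.983 (0.696 to 1.40) for MASH-1 over MASH-2 and 0.866 (0.636 to 1.18) for MAFL-2 over MAFL-1. Npas2 had ratios of 1.05 and 0.634 with intervals that also included 1. The labels give no hour of sampling, so its part in these section differences was not tested. Among the 9 tested clock genes the highest section was a median of 1.88 times the lowest, against 1.48 over all tested genes. Only Arntl and Ciart, 2 of these 9, reached 2-fold, against 24.6% of tested genes. For Npas2, which was not tested, the highest section was 1.84 times the lowest.

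Log ratios of a night-end to a day-phase gene put the phase contrast into 1 number per section. Only differences of such a ratio between sections are read here, not its level. The log2 ratio of Arntl to Dbp was -6.84 and -5.98 in MASH-1 and MASH-2 and -4.89 and -5.61 in MAFL-1 and MAFL-2, a difference of means of -1.16 with a pooled SD of 0.56 (n = 2 sections each). The MASH sections lay below the MAFL sections, and the order within each group was the reverse of that of Dbp. With 2 sections against 2, the smallest two-sided p that an exact permutation test allows is 0.3333, so none is given. The ratio of Arntl to each of the 7 day-phase genes averaged lower in MASH for 7 of 7, and for 4 of them (Nr1d2, Dbp, Per1, Per2) the groups did not overlap. The 7 ratios share the same Arntl counts and are not separate evidence. Arntl itself was lower in CPM in both MASH sections, which lowers its ratio to any gene that changes little. Ratios of Arntl to all other genes were not counted, so these counts are not read as particular to day-phase genes. For Clock the mean was lower in MASH for 5 of 7 ratios, with differences from -0.41 to 0.40, and the groups overlapped in all 7. For Npas2 it was lower for 7 of 7, with the groups apart for 2, at 6 to 9 UMIs a section. Npas2 too was itself lower in CPM in both MASH sections, and its ratios to all other genes were not counted.

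**Figure D2:**
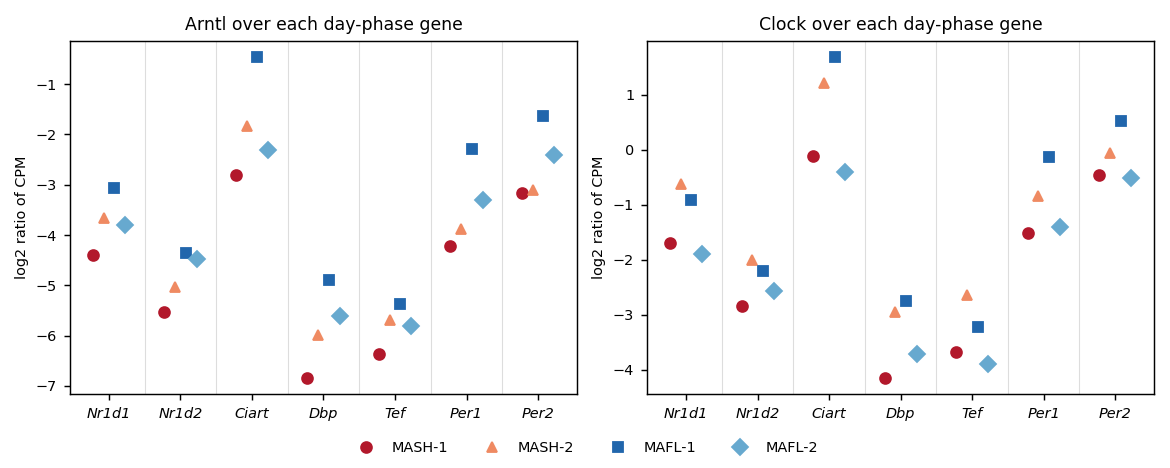
Log2 ratio of CPM (vertical axis) of Arntl (left) and Clock (right) to each of the 7 day-phase genes (horizontal axis), 1 point per section. For Arntl the MASH sections are the lower ones for Nr1d2, Dbp, Per1 and Per2; for Clock the groups overlap for all 7 genes, with MASH-1 and MAFL-2 below MASH-2 and MAFL-1 throughout.

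No clock gene passed the test between MASH and MAFL over whole sections. UMIs summed per section were fitted with edgeR's quasi-likelihood test, with Benjamini-Hochberg adjustment over all 13593 genes tested, and 0 of the 9 tested clock genes passed an adjusted p of 0.05, against 0.456% of all genes. DESeq2 also called 0 of the 9, and 1 had an unadjusted p under 0.05 in edgeR. That gene was Arntl, with 1.31 ± 0.02 CPM in MASH against 2.49 ± 0.25 CPM in MAFL (SD, n = 2 each), a log2 fold change of -1.02 (SE 0.28, 95% interval -1.66 to -0.37) and an adjusted p of 0.138. It passed only where no filter on low counts was applied, with an adjusted p of 0.0491 in edgeR, a setting that called 6.09% of 18940 genes. Over all settings its log2 fold change lay between -1.10 and -0.92.

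The other 8 had intervals that included 0. Tef averaged 88.0 ± 27.9 CPM in MASH against 119 ± 13.2 CPM in MAFL (adjusted p = 0.335 in edgeR for a log2 fold change of -0.53, SE 0.27). The remaining log2 fold changes were -0.39 for Nr1d1, -0.23 for Ciart, -0.18 for Clock, -0.11 for Nr1d2, 0.06 for Per2 and 0.19 for both Dbp and Per1. The spread between sections of a group sets how little this excludes: the interval of Ciart ran from -2.17 to 1.72 and that of Dbp from -0.72 to 1.11. The median log2 fold change of the 9 was -0.18, against 0.01 over all genes. That of the 7 day-phase genes was -0.11, with 3 above 0 and 4 below, beside -1.02 for Arntl. With 1 section left out at a time, the sign turned for Clock, Nr1d2, Ciart, Dbp, Per1 and Per2 and did not for Arntl, Tef and Nr1d1. Of these, Nr1d1 had -0.88 without MASH-1 but -0.04 without MASH-2 and -0.07 without MAFL-2, and Tef had -0.99 without MASH-1 and -0.19 without MASH-2. Groups did not overlap in CPM for 3 of 10 genes, all lower in MASH: Arntl, Tef and Npas2, the last too scarce to be tested. Among all tested genes, which leave out Npas2, 18.2% were lower in MASH without overlap and 34.1% were higher.

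**Figure D3:**
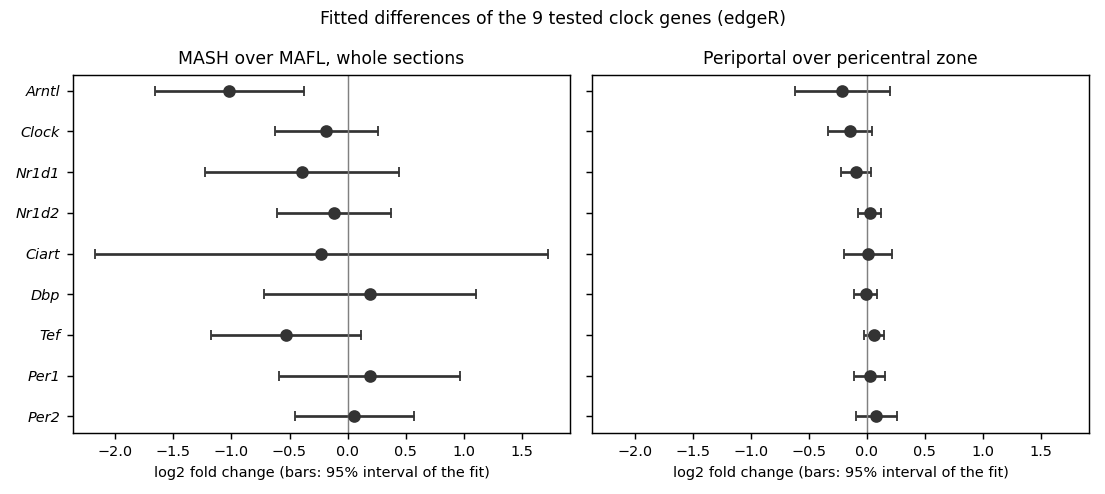
Fitted log2 fold change (horizontal axis) of the 9 tested clock genes (vertical axis) for MASH over MAFL (left) and for the periportal over the pericentral zone (right), with 95% intervals from the edgeR fits. The zone intervals lie close to 0 for the day-phase genes, within -0.23 and 0.26, while the group intervals are wide, that of Ciart running from -2.17 to 1.72.

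The other genes of the clock loop did not pass between the groups either. Of 15 such genes, listed from textbook knowledge, 14 were tested and 0 passed, with a median log2 fold change of 0.04. Nfil3, a repressor that competes with DBP and TEF for D-boxes, was lower in both MASH sections (9.51 and 9.94 CPM) than in both MAFL sections (17.6 and 13.7 CPM), with a log2 fold change of -0.79 and an adjusted p of 0.0911 in edgeR. Per3, the remaining period gene, had 16.3 and 8.59 CPM in MASH and 12.3 and 18.8 CPM in MAFL (log2 fold change -0.41, adjusted p = 0.636). Its order across the sections was that of Nr1d1. The repressor gene Bhlhe40 had a log2 fold change of 0.36 (adjusted p = 0.519). In all, 6 of the 15 followed the order MASH-1 above MASH-2 and MAFL-2 above MAFL-1.

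Of 12 clock-controlled liver genes 1 passed, and lower in MASH. Alas1, the first enzyme of haem synthesis, had 319 and 351 CPM in MASH against 809.9 and 655 CPM in MAFL, with an adjusted p of 0.0488 in edgeR for a log2 fold change of -1.23 (SE 0.18). With sections of equal number as a block no gene passed. The median of the 12 was 0.15. The day-phase order of the sections held for 6 of the 12, among them Upp2, a uridine phosphorylase, with 372 and 255 CPM in MASH and 121 and 414 CPM in MAFL. Cyp7a1, which starts the making of bile acids from cholesterol, had 109 and 74.7 CPM in MASH and 15.3 and 76.8 CPM in MAFL. Rgs16, a regulator of G protein signalling, had 98.4 and 35.2 CPM in MASH and 7.78 and 29.3 CPM in MAFL. These 3, named after their values were seen, spread more widely between sections than any tested clock gene, at 3.40, 7.07 and 12.6 times from the lowest to the highest, and MAFL-1 was the lowest section for each.

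**Figure D4:**
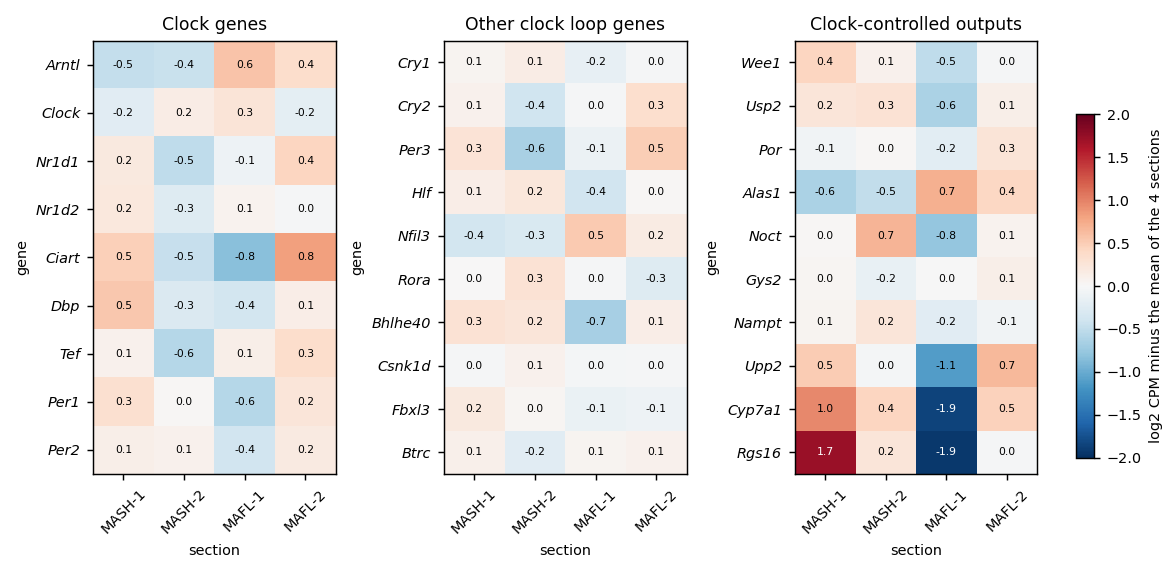
Level in each section (columns) as log2 CPM minus the mean of the 4 sections (colour and printed value), for the 9 tested clock genes and for other loop genes and clock-controlled outputs with a mean of at least 5 CPM (rows). Ciart, Dbp and Nr1d1 are above their mean in MASH-1 and MAFL-2 and below it in MASH-2 and MAFL-1; Rgs16 and Cyp7a1 show the lowest values in MAFL-1.

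Genes that respond to REV-ERB, temperature, glucocorticoids or feeding were read alongside, signals that follow a daily rhythm. None of the 6, 9, 10 and 11 tested genes of these lists passed between MASH and MAFL. Among REV-ERB-repressed genes Cry1 had a log2 fold change of 0.09, and Nfil3 and the fatty acid elongase gene Elovl3 (-0.11) lay at the bottom. Among temperature-responsive genes with a mean of at least 5 CPM, the heat shock genes Hspa1b (1.01) and Dnajb1 (0.31) lay at the top. At the bottom were Cirbp (-0.88), for a cold-inducible RNA-binding protein, and the chaperone gene Hsph1 (-0.82). Hspa1a, below that level, had 1.10 and 2.27 CPM in MASH against 0.81 and 0.26 CPM in MAFL. Cirbp had 17.6 and 15.9 CPM in MASH against 21.5 and 35.9 CPM in MAFL, without overlap. Hsph1 had 28.1 and 22.6 CPM in MASH and 58.3 and 26.1 CPM in MAFL-1 and MAFL-2, with overlap. Glucocorticoid-responsive genes had a median log2 fold change of 0.33 with 9 of 10 above 0. Those with a mean of at least 5 CPM ran from Mt1 (0.85) and Sgk1 (0.69) down to Fkbp5 (0.08) and Tat (-0.05). Cdkn1a, below that level, had 3.07 and 12.9 CPM in MASH-1 and MASH-2 against 2.20 and 1.08 CPM in MAFL-1 and MAFL-2. Feeding and fasting genes had a median of 0.07, with G6pc at 0.64 and Cpt1a (-0.19) and Angptl4 (-0.26) at the bottom. G6pc had 95.3 and 260 CPM in MASH-1 and MASH-2 and 88.0 and 120 CPM in MAFL, with overlap.

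No clock gene passed between the ends of the lobule, and the day-phase genes differed little there on average over sections. Spots of each section were ranked by log2((Cyp2f2 + 1)/(Cyp2e1 + 1)), a periportal over a pericentral cytochrome P450, and cut into 3 classes of equal size, called the periportal, middle and pericentral zones. In the periportal and pericentral zones Cyp2e1 itself, which made the ranking, had 2489.6 and 10726 CPM in MASH-1 and 1062 and 6787 CPM in MAFL-1. Ciart had 9.09 and 4.08 CPM in the periportal zones of MASH-1 and MASH-2 and 9.06 and 5.09 CPM in their pericentral zones. In MAFL-1 and MAFL-2 it had 3.76 and 11.7 CPM periportally and 3.64 and 10.7 CPM pericentrally. The difference between sections was thus present at both ends of the lobule, and within a section the 3 levels of Ciart differed by 1.01 to 1.35 times while within a zone the 4 sections differed by 2.95 to 3.33 times.

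Tef and Dbp behaved alike in this. Tef had 110.2 and 65.9 CPM in the periportal zones of MASH-1 and MASH-2 against 106 and 69.6 CPM in their pericentral zones, and 109 and 133 CPM against 107 and 123 CPM in MAFL-1 and MAFL-2. Its levels differed by 1.04 to 1.08 times across the lobule of a section and by 1.77 to 2.01 times across sections. For Dbp these ranges were 1.08 to 1.22 and 1.67 to 2.24. The highest section was the same in all 3 zones for Nr1d1, Nr1d2, Ciart, Dbp, Tef and Per1, and the lowest was the same for these genes other than Dbp and also for Per2.

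The test between the periportal and pericentral zones, with the section as a block, called 0 of the 9 clock genes. Over all genes the same fit called 2909 of 12575, or 23.1%. DESeq2 called 0 of the 9 as well, and 0 of the 9 had an unadjusted p under 0.05 in edgeR. The log2 fold changes were 0.06 for Tef (95% interval -0.03 to 0.15), 0.03 for Nr1d2 (-0.07 to 0.12), -0.01 for Dbp (-0.11 to 0.09), 0.02 for Per1 (-0.11 to 0.16), 0.01 for Ciart (-0.20 to 0.22), 0.08 for Per2 (-0.09 to 0.26) and -0.09 for Nr1d1 (-0.23 to 0.04). For the average over sections of these 7 genes the intervals leave room for no more than 0.26 on the log2 scale in either direction. Single sections differed more. The log2 ratio of periportal to pericentral CPM was above 0 for all 7 in MASH-1, from 0.005 for Ciart to 0.32 for Per2. It was below 0 for all 7 in MASH-2, down to -0.32 for Ciart, and of mixed sign in MAFL-1 and MAFL-2. These are ratios of plain CPM, and the share of all genes above or below 0 in a section was not counted. The fitted intervals were wider for Clock (-0.14, from -0.33 to 0.05) and Arntl (-0.21, from -0.62 to 0.20). Spots held more UMIs at the periportal end in MASH, with medians of 33004.5 and 34028 against 22911 and 15751 at the pericentral end. In MAFL the medians were 15499 and 22462 against 15626 and 18560. With every spot thinned to 5000 UMIs the count of clock genes called was also 0.

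**Figure D5:**
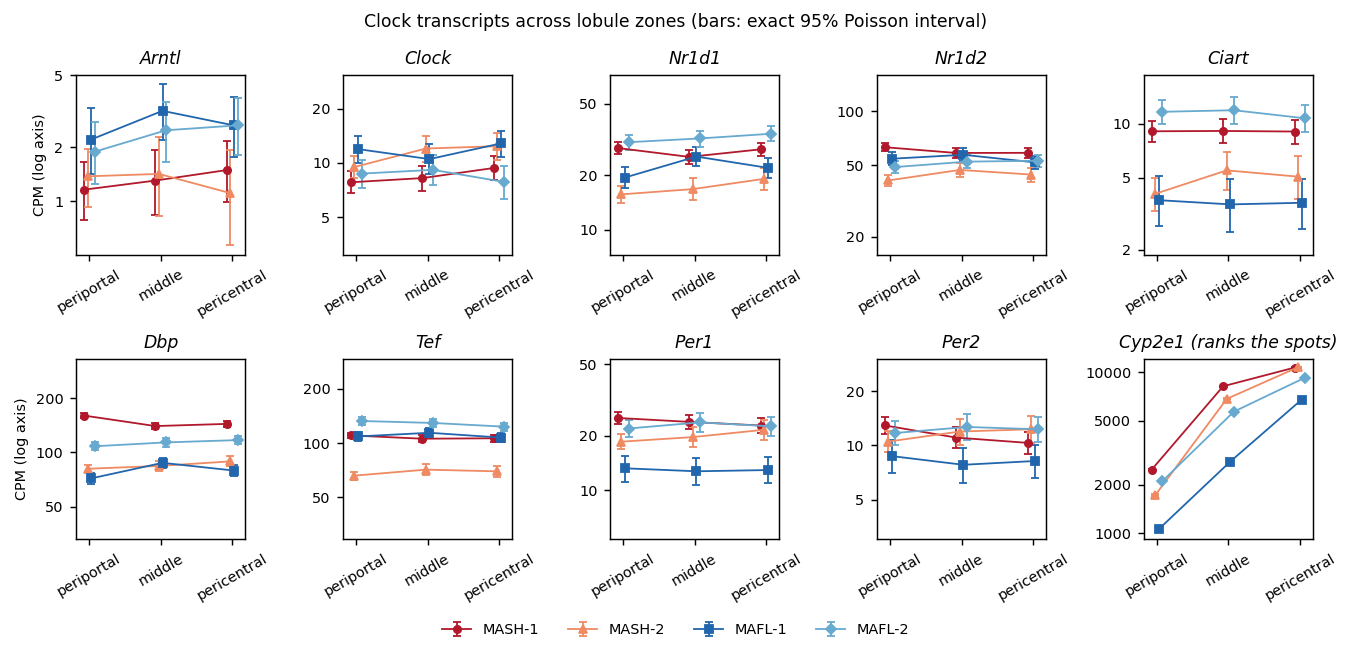
Level of the 9 tested clock genes and of Cyp2e1, which ranks the spots, in CPM on a log axis (vertical) in the periportal, middle and pericentral zones (horizontal), 1 line per section with exact 95% Poisson intervals. The lines of Ciart run nearly level and do not cross, with 1.01 to 1.35 times between zones of a section for Ciart and 2.95 to 3.33 times between sections.

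Several genes downstream of the clock were zonated in the same fit, which called 23.1% of all genes. Of the 12 clock-controlled outputs 3 were higher periportally and 4 lower. Noct, for the deadenylase-related protein nocturnin, had a log2 fold change of 0.65 (SE 0.07, adjusted p = 4.65e-09 in edgeR), Nampt, of NAD salvage, 0.41 and the liver glycogen synthase gene Gys2 0.32. On the other side were the vasopressin receptor gene Avpr1a at -2.56, Cyp7a1 at -1.47 (adjusted p = 3.3e-20), the P450 reductase gene Por at -0.59 and the deubiquitinase gene Usp2 at -0.20. Of the other loop genes 3 of 14 passed, with smaller shifts for the D-box factor gene Hlf (-0.22) and for Bhlhe40 (0.16) and a larger one for the scarce Fbxl21 (-0.88). Among REV-ERB-repressed genes 1 of 6 passed, Elovl3 at -1.92. The shares of these last lists lay below that of all genes.

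The lists tied to other daily signals were read against the same 23.1% of all genes. Glucocorticoid-responsive genes passed for 5 of 10, all higher periportally: Mt1 (1.10), Mt2 (1.07), Tat (0.35), Fkbp5 (0.34) and Dusp1 (0.15). Feeding and fasting genes passed for 5 of 11 periportally, among them Pck1 (0.62), Ppargc1a (0.52), Srebf1 (0.27) and Cpt1a (0.13), and for 1 pericentrally, Angptl4 (-0.13). Of 9 temperature-responsive genes Rbm3 was higher (0.23) and Hspa1a (-0.80) and Hspa1b (-0.82) lower at the periportal end, 3 of 9 in all.

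The zonation of the clock genes was not detectably different between MASH and MAFL. The fit of the periportal minus pericentral difference in MASH minus that in MAFL called 0 of the 9, against 0.533% of all genes. DESeq2 called 0, and 1 had an unadjusted p under 0.05. That was Dbp, whose log2 ratio of periportal to pericentral CPM was 0.15 and -0.14 in MASH-1 and MASH-2 and -0.15 and -0.11 in MAFL-1 and MAFL-2 (fitted difference 0.21, SE 0.09, adjusted p = 0.489 in edgeR). Only MASH-1 differed in sign. The other 8 had fitted differences from -0.27 for Clock to 0.33 for Arntl, each with an interval that included 0. In the same fit Alas1 (-0.60), Srebf1 (-0.43), Upp2 (0.40), Hspa8 (0.50), Mt1 (0.67) and Mt2 (0.56) passed.

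Within each zone of the lobule taken alone, 0 of the 9 clock genes passed between MASH and MAFL, against 1.28% of genes in periportal, 0.52% in middle and 0.636% in pericentral zones, and DESeq2 called 0 in each. The number with an unadjusted p under 0.05 was 0, 1 and 1, Arntl each time. Arntl had log2 fold changes of -0.76, -1.13 and -1.10 in the periportal, middle and pericentral zones (adjusted p = 0.304, 0.202 and 0.2 in edgeR). Tef had -0.53, -0.53 and -0.50 and Nr1d1 -0.26, -0.52 and -0.36. The other 6 genes lay between -0.33 and 0.35 in all 3 zones. These values and counts depended on single sections. Without MASH-2, Tef had -0.19, -0.22 and -0.16 and Nr1d1 0.12, -0.20 and -0.06 in the 3 zones, and 0 of the 9 passed in each. Without MASH-1, 1 clock gene passed in periportal zones (Tef, -0.97, adjusted p = 0.042) and 3 in pericentral zones, Arntl (-1.48, adjusted p = 0.0399), Nr1d1 (-0.80, adjusted p = 0.00686) and Tef (-0.97, adjusted p = 0.000598), with MASH-2 then the only MASH section and assumed to vary as the MAFL sections do. Those fits called 5.65% of all genes in periportal and 15.7% in pericentral zones.

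Spots rich in macrophage RNA were compared with spots poor in it, because the MASH sections held more of it. Within bins of total UMIs, the 10% of spots with the highest share of macrophage and Kupffer cell markers were set against the 50% with the lowest, with the section as a block and the markers left out. None of the 9 clock genes passed, against 7.16% of 12443 genes, and DESeq2 called 0. At an unadjusted p under 0.05 there were 3. Per2 had 11.3 and 10.5 CPM in marker-rich against 12.2 and 11.4 CPM in marker-poor spots of MASH-1 and MASH-2, and 5.75 and 9.47 against 9.37 and 12.3 CPM in MAFL-1 and MAFL-2. It was lower in 4 of 4 sections, with an adjusted p of 0.0748 in edgeR for a log2 fold change of -0.36 (SE 0.12).

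Ciart went the other way, with 10.2 and 6.88 CPM in marker-rich against 9.04 and 4.02 CPM in marker-poor spots of MASH, and 4.15 and 14.3 against 3.54 and 10.3 CPM in MAFL. It was higher in 4 of 4 sections (0.29, SE 0.14, adjusted p = 0.248), but with spots thinned to 5000 UMIs the fitted value was -0.40, so its direction depended on this setting. That of Arntl did too, at -0.07 and, in thinned spots, 0.45. Nr1d1 was lower in 4 of 4 (-0.17, adjusted p = 0.215), and the other 6 had log2 fold changes from -0.15 for Per1 to -0.04 for Dbp and Tef. In plain CPM, against these fitted signs, Tef was higher in marker-rich spots in 4 of 4 sections and Dbp and Nr1d2 in 3 of 4. Arntl, Clock and Per1 were higher in 2 of 4. With section totals in place of TMM scaling the median of all genes in this fit was 0.07, against -0.02, so that signs this close to 0 depend on the scaling. The difference of this contrast between MASH and MAFL was tested too, a choice made after seeing the data, and called 0 of the 9, against 1.94% of genes, with 0 at an unadjusted p under 0.05 and 0 in DESeq2. Among the other lists Hlf (-0.27), Por (-0.20), Alas1 (-0.18), Cyp7a1 (-0.28), Elovl3 (-0.44), Cirbp (-0.29), Klf9 (-0.27) and G6pc (-0.22) were lower and Sgk1 (0.45) was higher in marker-rich spots. The spot classes were matched on total UMIs and not on zone. In the zone fit 3 of 5 Kupffer cell and 4 of 7 macrophage markers passed as higher periportally. Hlf, Por, Cyp7a1 and Elovl3 passed there as lower periportally, while Alas1, Cirbp, Klf9 and Sgk1 did not pass. Zone and spot class can therefore not be told apart for these genes. In marker-poor spots alone, 0 of the 9 clock genes passed between MASH and MAFL, and the difference in the log2 ratio of Arntl to Dbp was -1.16, as in all spots.

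Genes that followed Arntl or Dbp most closely were sought over the 12 values of 4 sections by 3 zones, as a description, since values of a section share a library. Among 3977 genes with at least 20 CPM, Pearson correlations of log2(CPM + 1) with Arntl were highest for Epn1 (0.954) and Ggcx (0.948). Ggcx, for the vitamin K dependent carboxylase, had 23.0 and 23.2 CPM in MASH against 33.6 and 32.5 CPM in MAFL. With Dbp they were highest for Klf15 (0.960), Haao (0.960) and Cox4i1 (0.957). Klf15, for a Krüppel-like transcription factor, had 138 and 93.7 CPM in MASH and 85.5 and 109 CPM in MAFL, the same order of the 4 sections as Dbp. Being picked as the highest of so many genes raises these values.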

How the data were processed

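The labels' protocol describes fresh-frozen liver on 10x Visium slides. Per the file headers, the authors made the deposited counts with Space Ranger 1.2.2, and the submitters' processing notes name mm10. A count gives the UMIs that a spot holds for a gene, unscaled. Spots under 500 UMIs were left out here (3 in MASH-1, 3 in MAFL-1). Counts were summed per section, lobule zone or spot class and given per 1000000 (CPM). Counts of 2 sections of a group differed beyond sampling noise (chi-square per degree of freedom 116 for MASH, 67.7 for MAFL). A count of 3 corresponds to 0.047 to 0.093 CPM.

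Sums were fitted with edgeR 4.0.16 (TMM scaling, filterByExpr, robust quasi-likelihood test) in R 4.3.3, with DESeq2 1.42.0 and limma 3.58.1 as alternatives. SEs were derived from the F statistic. Within-section comparisons had the section as a block, and ties in rankings were broken by a seeded random order. On simulated data with 100 genes changed 2-fold and 100 changed 4-fold, the fit of whole sections recovered 47 and 94 (15 of 156 calls false, 9.62%) and the zone fit 100 and 100 (11 of 211, 5.21%).

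The RORE core was shortened by a base after a longer form had been searched. The members and gene lists were chosen with earlier results of these data known. All 10 members are named for the levels per section. In some fits several members are given only as a range, and Npas2 was tested in none of the main fits. Of other lists, genes past 0.05 are named, and otherwise the 2 highest and 2 lowest log2 fold changes at a mean of at least 5 CPM. A few genes that these rules name are not reported here. For MASH against MAFL within zones, the lists are not described.

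Over 13593 genes, deviations of same-numbered sections from their group means correlated at -0.19. Spot positions were not used here.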

Additional observations from a re-analysis of the deposited data

Results flagged for a closer look

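Arntl moved in opposite directions between spot classes in the 2 groups. The log2 ratio of its CPM in marker-rich to marker-poor spots averaged 0.38 in MASH (0.41 and 0.36 in MASH-1 and MASH-2) and -0.35 in MAFL (-0.18 and -0.53 in MAFL-1 and MAFL-2), so both sections of one group moved up and both of the other down. The marker-rich spots held only 12 and 6 Arntl UMIs in MASH and 6 and 7 in MAFL. A test of the difference itself, added after seeing the data, gave a log2 difference of 0.68 (SE 0.61, 95% interval -0.53 to 1.88, adjusted p = 0.749 in edgeR), while 1.94% of all genes passed that test.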

How the results depend on the processing

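The number of clock genes called between groups, zones or spot classes was 0 in 63 of 66 alternative settings over 8 fits. The exceptions were whole sections without a filter on low counts (1, Arntl, where 6.09% of all genes passed) and, in the ranges over leaving out each section, periportal zones (0 to 1) and pericentral zones (0 to 3), both without MASH-1, where 5.65% and 15.7% of all genes passed. The causes were not tested. Of 594 single-gene values under alternatives, 80 had the other sign than the reported value, 57 of them from leaving out a section (18 without MASH-1, 11 without MASH-2, 16 without MAFL-1 and 12 without MAFL-2), and none of the 80 passed 0.05 in any fit. The difference in the log2 ratio of Arntl to Dbp was -1.16 in marker-poor spots and in thinned spots.

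The log2 fold changes that changed sign when sections were left out had these ranges. For MASH against MAFL in whole sections they were Clock (-0.38 to 0.021), Nr1d2 (-0.46 to 0.15), Ciart (-0.88 to 0.86), Dbp (-0.38 to 0.59), Per1 (-0.19 to 0.68) and Per2 (-0.23 to 0.40). In periportal zones they were Nr1d1 (-0.78 to 0.13), Nr1d2 (-0.42 to 0.23), Ciart (-1.05 to 0.76), Dbp (-0.25 to 0.77), Per1 (-0.11 to 0.67) and Per2 (-0.11 to 0.37). In middle zones they were Clock (-0.26 to 0.11), Nr1d2 (-0.40 to 0.085), Ciart (-0.79 to 0.998), Dbp (-0.44 to 0.46), Per1 (-0.24 to 0.72) and Per2 (-0.26 to 0.48). In pericentral zones they were Clock (-0.37 to 0.30), Nr1d1 (-0.80 to 0.0016), Nr1d2 (-0.48 to 0.12), Ciart (-0.76 to 0.88), Dbp (-0.39 to 0.51), Per1 (-0.18 to 0.67) and Per2 (-0.29 to 0.34). Between periportal and pericentral zones they were Nr1d2 (-0.0031 to 0.068), Ciart (-0.047 to 0.051), Dbp (-0.074 to 0.020), Per1 (-0.031 to 0.056) and Per2 (-0.033 to 0.14). For the difference in zonation they were Arntl (-0.0063 to 0.83), Nr1d2 (-0.0064 to 0.17), Tef (-0.068 to 0.026), Per1 (-0.057 to 0.13) and Per2 (-0.071 to 0.31). For marker-rich against marker-poor spots they were Arntl (-0.24 to 0.12), Clock (-0.11 to 0.015) and Per1 (-0.36 to 0.0048).

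Scaling by section totals alone turned the sign of 13 values. For MASH against MAFL these were Nr1d2 in periportal zones (0.015), Clock in middle (0.039) and pericentral zones (0.073) and Per2 in pericentral zones (0.14). Between zones they were Nr1d2 (-0.017), Ciart (-0.027) and Per1 (-0.024), and for the difference in zonation Per1 (-0.0068). For marker-rich spots they were Arntl (0.021), Clock (0.046), Nr1d2 (0.0078), Dbp (0.058) and Tef (0.052). Thinned spots turned Clock (0.058) and Nr1d1 (0.013) between zones, and Arntl (0.45), Ciart (-0.40) and Dbp (0.057) for marker-rich spots. DESeq2 turned Per2 in pericentral zones (0.0033) and Per1 in the marker-rich difference between groups (-0.038), and the replicate block turned Per2 in pericentral zones (0.032). For Arntl, the outer 20% of spots gave 0.16 between zones and the 12-gene zone score gave -0.15 for the difference in zonation. The causes of these sign changes were not tested.

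The number of all genes called depended more on the setting. For MASH against MAFL it was 62 in edgeR, 627 in DESeq2, 22 in limma-voom, 1153 without the filter, 143 in thinned spots, 36 in marker-poor spots and 20 to 535 without single sections (535 without MASH-1, 24 without MASH-2, 20 without MAFL-1). With a replicate block for sections of equal number it was 0 (1901 at an unadjusted p under 0.05) with 0 clock genes, the numbers sharing no stated origin. With the numbers crossed, an alternative chosen after seeing the data, it was 781 and 0. For zones it was 2909, against 1683 in DESeq2 and 1308 in thinned spots. For the difference in zonation it was 67, against 43 in DESeq2 and 7 to 453 without single sections. For marker-rich spots it was 891, against 316 in DESeq2, 314 in thinned spots and 285 to 1045 without single sections. Scaling by section totals alone moved the median log2 fold change of all genes between MASH and MAFL to 0.11, against 0.01, and in pericentral zones to 0.14, against 0.00. Depth limits Arntl and Npas2 most.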
